A study of Mus musculus with 8 samples.

Results

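The genes described here are 37 genes whose products work inside the lysosome, in its membrane or in the pump that acidifies it. By role they were grouped into 8 cysteine proteases, 3 other proteases, 6 glycosidases, 5 lipid-handling proteins, 6 membrane proteins, 7 subunits of the proton pump and 2 other soluble proteins. They were chosen by symbol, and all 37 were found among the 30406 genes that the 4 gene count matrices have in common. All 37 also passed the filter on low counts, which kept 11481 genes for testing.

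Single-cell RNA sequencing was performed on CD45+ CD11b+ myeloid cells sorted from the sciatic nerve of male and female C57BL/6JolaHsd mice, bought at 7 weeks of age. Nerves were injured by partial sciatic nerve ligation (PSNL), in which part of the nerve is tied off, or by crush with forceps, and were collected after 1 week or 15 weeks. In sham surgery, collected at 1 week alone, the nerve was exposed and not touched. Antibody hashtags separated the cells of each library into samples labelled by sex. The groups were sham at 1 week (1 male and 1 female sample), crush at 1 week (1 female, 1 male), PSNL at 1 week (1 female, 1 male), crush at 15 weeks (females F1 and F2, male M1) and PSNL at 15 weeks (females F1 and F2, males M1 and M2). The sources used here do not give the number of mice behind a hashtag, so all p-values measure only the spread between these samples.

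Several features of the design limit the comparisons. Sham has no sample at 15 weeks, and Ly6G+ neutrophils were sorted out at 1 week alone. Each injury at each time came from its own library, so injury and library cannot be told apart, except that the male sham cells were run with crush and the female sham cells with PSNL. Time coincided with batch, with the Cell Ranger version (6.0.0 at 1 week, 7.0.0 at 15 weeks) and with the gene list used for counting (31056 genes at 1 week, 32289 at 15 weeks). In RNA summed over a sample, a shift in cell composition and a change of RNA per cell cannot be told apart.

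After filtering, 6545 cells remained, from 64 in the female sham sample and 106 in the male to 1554 in crush M1 at 15 weeks, with summed counts of 247765 to 15288422 unique molecular identifiers (UMIs) per sample. Xist lay at 1.69 CPM (UMIs scaled to the same total in every sample) or less in every sample labelled male and at 771 or more in every sample labelled female. Sorting markers were present, with Itgam (CD11b) at 121 to 640 CPM, while the summed markers of lymphoid cells and those of fibroblasts, Schwann cells and endothelium stayed at 0.0073% of UMIs or less. Any pair of libraries had 1 to 3 cell barcodes in common. Gm42418, whose locus contains ribosomal RNA sequence and which served as a sign of RNA quality, took 7.24% to 18.4% of UMIs at 1 week and 1.33% to 2.34% at 15 weeks.

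Lysosomes are the acidic compartments in which macrophages break down what they engulf, which in an injured nerve includes myelin and axon debris. A V-type ATPase pumps protons into the lumen, soluble hydrolases that work at low pH cut proteins, sugars and lipids, and heavily glycosylated membrane proteins line the compartment. Many lysosomal genes carry the CLEAR element in their promoters, a sequence built around CACGTG that the transcription factors TFEB, TFE3 and MITF bind.

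The letters of this element were looked for in the promoters of the members. In the RefSeq promoter table (GRCm38.p6, 250 bases before to 50 bases after the start) 30 of the 37 members had an entry. CACGTG, whose complement reads the same, stood in 10 of these 30 (33.3%), and TCACGTGA, which contains it, in 5 (16.7%). Over all 27025 genes of the table the shares were 8.09% and 1.12%. Among 63 other lysosomal genes, listed for comparison, 50 had an entry, and 10 of these held CACGTG. The stretches printed here show where CACGTG lay, in capitals, in 6 members of different roles: a membrane glycoprotein (Lamp1), the TRPML1 calcium channel (Mcoln1), an aspartic protease (Ctsd), a cysteine protease (Ctsl) and a membrane and a cytosolic subunit of the pump (Atp6v0d1 and Atp6v1a). Each is written 5′ to 3′ on the strand of its gene. For Ctsd 1 of its 2 matches is shown. Lamp1 had the most matches, 4. Members without a match included Ctsk, Neu1, Man2b1, Lamp2, Atp6v0c and Creg1. A match is a description of these letters and says nothing about whether a factor bound there.
Lamp1, chr8:13159080-13159171, + strand: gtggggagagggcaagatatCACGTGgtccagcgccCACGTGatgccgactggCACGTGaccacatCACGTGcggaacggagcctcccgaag
Mcoln1, chr8:3500428-3500499, + strand: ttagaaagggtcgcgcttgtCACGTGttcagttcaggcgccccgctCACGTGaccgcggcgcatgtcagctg
Ctsd, chr7:142387900-142387945, − strand: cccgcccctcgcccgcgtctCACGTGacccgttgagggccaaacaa
Ctsl, chr13:64370731-64370770, − strand: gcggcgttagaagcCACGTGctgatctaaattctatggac
Atp6v0d1, chr8:105566042-105566087, − strand: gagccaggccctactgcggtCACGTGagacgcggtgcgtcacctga
Atp6v1a, chr16:44139365-44139410, − strand: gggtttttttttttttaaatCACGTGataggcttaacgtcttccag

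Summed over the 37 members, lysosomal transcripts took 1.07% of gene UMIs in the male and 0.999% in the female sham sample. They took 1.59% and 1.60% in crush at 1 week, and 1.93% and 2.09% in PSNL at 1 week, with no overlap between the 3 groups. The order from sham over crush to PSNL therefore held in every sample at 1 week. Mitochondrial genes, a sign of RNA quality, took the reverse order, with 4.10% and 4.01% of UMIs in sham, 3.38% and 2.86% in crush and 2.32% and 2.34% in PSNL. With these genes, Gm42418 and AY036118 left out of the total, the mean member share was 1.27% in sham, 1.84% in crush and 2.32% in PSNL. At 15 weeks the share ran from 1.46% to 2.25% in the 4 PSNL samples and was 1.77%, 1.75% and 3.07% in the crush samples, where M1 stood far above F1 and F2. Group means were 1.04% ± 0.052 (SD, n = 2) in sham, 1.59% ± 0.0034 (n = 2) in crush and 2.01% ± 0.11 (n = 2) in PSNL at 1 week, 1.83% ± 0.33 (n = 4) in PSNL at 15 weeks and 2.20% ± 0.75 (n = 3) in crush at 15 weeks. These shares are a description with no test.

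**Figure D1:**
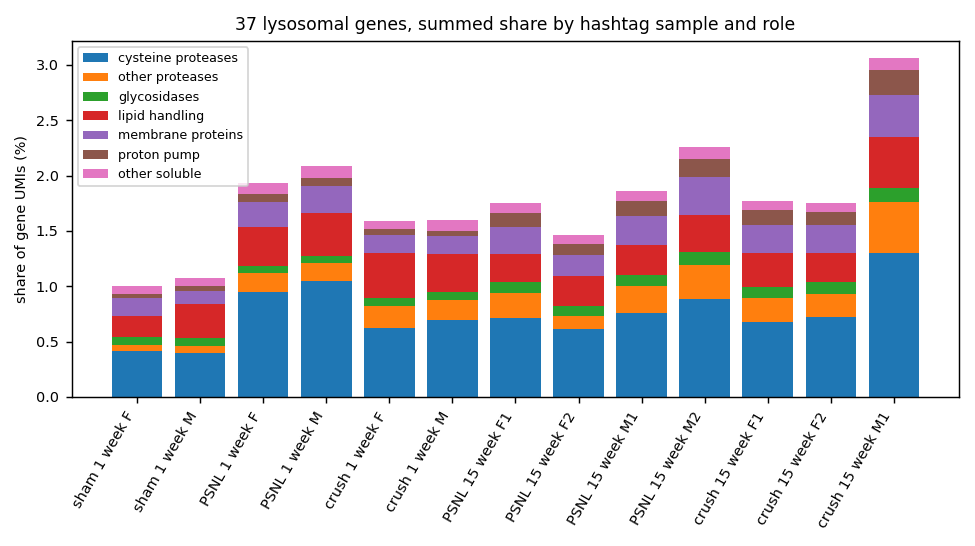
Share of gene UMIs (%) taken by the 37 members in each of the 13 samples, as 1 stacked bar per sample coloured by role. The 2 sham samples lie lowest, at 1.07% and 0.999%, and crush M1 at 15 weeks lies highest, at 3.07%.

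Members differed in how much they added to this share. Their genes lie on 18 chromosomes of GRCm38, with Ctsk (chr3:95499256-95509362) and Ctss (chr3:95526786-95556403) both on the + strand, and Ctsl (chr13:64359337-64370890) and Ctsd (chr7:142375911-142388038) on the − strand. Of the exonic bases of Ctsl 26.8% overlap Gm47123, an antisense gene in both gene lists. Psap, which encodes the precursor of the saposins that present glycolipids to their hydrolases, gave 10.1% to 19.9% of member UMIs, depending on the sample. Cathepsin S (Ctss), which trims the invariant chain of MHC class II, gave 9.94% to 18.8%, and cathepsin B (Ctsb) 9.50% to 17.1%. Cathepsin D (Ctsd) gave 1.74% to 12.7% and cathepsin L (Ctsl) 0.568% to 9.82%. By role, cysteine proteases took 0.399% and 0.417% of all gene UMIs in sham, 0.619% and 0.694% in crush and 0.945% and 1.05% in PSNL at 1 week. Proton pump subunits took 0.0425% and 0.0351% in sham, 0.0498% and 0.0419% in crush and 0.0701% and 0.0773% in PSNL at 1 week, against 0.0985% to 0.225% at 15 weeks. The pump share includes Atp6v0c, at 4.37 to 24.1 CPM at 1 week and 370 to 786 CPM at 15 weeks. By the test given further on, 1 of the 7 subunits (Atp6v0c) was higher and 4 were lower at 15 weeks in PSNL. Over all genes 29.3% were higher and 27% lower there. In crush 5 were higher and 0 lower, beside 24.1% and 18.5% of all genes. Some of these calls were not stable. That of Atp6v1b2 in PSNL held under 13 of 24 alternatives, and those of Atp6v1a and Atp6v1h in crush under 12 and 14.

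The share also differed in its spread over cells. Among cells with at least 2000 UMIs, the median cell gave 0.960% of its UMIs to the members in the male and 0.983% in the female sham sample, against 0.938% and 1.13% in crush and 1.26% and 1.53% in PSNL at 1 week. The PSNL medians thus lay above both sham medians, while those of crush lay on either side of them. Cells above 3% made up 16.5% and 12.7% in crush and 17.0% and 19.2% in PSNL at 1 week. In the male sham sample they made up 2.30% (2 of 87 cells, 95% Clopper-Pearson interval 0.28% to 8.06%) and in the female sham sample 0 of 47 cells did, for which the same interval reaches 7.55% and a limit of 3 cells is 6.38%. Such intervals and limits cover counting error only. At 15 weeks 5.39% to 18.6% of cells exceeded 3% in the PSNL samples and 10.5%, 7.32% and 39.8% in crush F1, F2 and M1.

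The first comparison asked how the lysosomal genes of nerve myeloid cells differed between PSNL and sham surgery at 1 week. In PSNL 10 of 37 members were higher and 0 lower at an adjusted p under 0.05 (edgeR quasi-likelihood test, Benjamini-Hochberg over all genes tested), and the median log2 difference over the members was 0.78. Over all 11481 genes 3.21% were higher and 2% lower in this comparison, with a median of 0.10. The calls comprised 4 of 8 cysteine proteases, 1 of 3 other proteases, 1 of 6 glycosidases, 1 of 5 lipid-handling genes, 1 of 6 membrane proteins, 1 of 7 pump subunits and 1 of 2 other soluble proteins. Levels are given as TMM-scaled CPM, with the male sham sample before the female and the female injured sample before the male.

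Among the proteases, Ctsl, a broad endopeptidase of macrophage lysosomes, lay at 78.7 and 105 CPM in sham and at 1553 and 2494 CPM in PSNL, a log2 difference of 4.50 ± 0.89 (SE, adjusted p = 0.014). Ctsb, which cuts proteins both internally and from their ends, lay at 1083 and 1333 against 3891 and 3974 CPM, 1.71 ± 0.42 on the log2 scale (adjusted p = 0.036). Ctss lay at 1200 and 1075 against 2709 and 3134 CPM, 1.36 ± 0.36 (adjusted p = 0.048). In all of these the lowest PSNL sample stood above the highest sham sample, which adds no support, since the same samples gave the calls. With 2 against 2 samples such a separation arises by chance with a probability of 0.333. Legumain (Lgmn), which cuts after asparagine and matures other cathepsins, lay at 345 and 385 against 1014 and 989 CPM, 1.46 ± 0.32 (adjusted p = 0.023). Ctsd, the main aspartic protease, lay at 366 and 188 against 1578 and 1451 CPM, 2.42 ± 0.56 (adjusted p = 0.029). Cathepsin K (Ctsk), the collagen-cutting protease best known from osteoclasts, lay at 1.75 and 4.37 CPM in sham, 1 UMI in each sample, and at 105 and 182 CPM in PSNL. Its log2 difference of 5.83 ± 1.98 did not pass the test (adjusted p = 0.11). Cathepsin C (Ctsc), which activates granule proteases, and the aminopeptidase Ctsh overlapped between the groups, at 441 and 629 against 534 and 440 CPM for Ctsc and 469 and 489 against 467 and 489 CPM for Ctsh.

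The remaining calls fell in the other roles. Neuraminidase 1 (Neu1), which removes sialic acids, lay at 45.5 and 35.0 CPM in sham and 92.2 and 81.1 CPM in PSNL, 1.05 ± 0.24 on the log2 scale (adjusted p = 0.028). Npc1, which exports cholesterol from the lysosome, lay at 36.7 and 21.9 against 96.9 and 101 CPM, 1.64 ± 0.44 (adjusted p = 0.049). Lamp2, a structural glycoprotein of the membrane, differed less, at 308 and 319 against 507 and 462 CPM (0.63 ± 0.16, adjusted p = 0.044). Its call held under 8 of 25 alternatives, the fewest of the members called, and was lost among others without neutrophil-gated cells. Tcirg1, the a3 subunit of the pump, lay at 31.5 and 48.1 against 115 and 146 CPM, 1.81 ± 0.37 (adjusted p = 0.017), and Creg1, a secreted and lysosomal glycoprotein, at 154 and 162 against 357 and 488 CPM, 1.43 ± 0.35 (adjusted p = 0.034). For the glycosidases Hexa and Gusb and the ceramidase Asah1 the sham and PSNL samples overlapped. Man2b1, the acid alpha-mannosidase, had lower values in both PSNL samples (209 and 172 CPM) than in sham (271 and 332 CPM) without passing the test (−0.65 ± 0.18, adjusted p = 0.052).

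Of the 63 other lysosomal genes, 12 were higher and 1 was lower in PSNL than in sham. Atp6v1d and Atp6v1e1, both of the pump's cytosolic part, were higher by 1.76 ± 0.26 (adjusted p = 0.0035) and 1.04 ± 0.18 (adjusted p = 0.0081) on the log2 scale, and Atp6ap2, an accessory subunit, by 0.76 ± 0.16 (adjusted p = 0.020). Cstb, a cytosolic inhibitor of cysteine cathepsins, lay at 222 and 236 CPM in sham and at 1206 and 1753 CPM in PSNL, 2.70 ± 0.48 (adjusted p = 0.0084). Slc11a1, the metal transporter NRAMP1 of phagosomes, was higher by 1.78 ± 0.35 (adjusted p = 0.013), and Aga, which splits sugar from asparagine, by 1.88 ± 0.33 (adjusted p = 0.0077). Mitf, which encodes one of the factors of the CLEAR element, was higher by 1.26 ± 0.29 (adjusted p = 0.028). Arsb, a sulfatase, was the gene that fell, by 1.84 ± 0.41 on the log2 scale (adjusted p = 0.024).

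These calls depended on single samples and, for some members, on settings of the processing. Without the male sham, the female sham or the male PSNL sample 0 members passed, without the female PSNL sample 2, without PSNL F1 or M1 of 15 weeks 5 each, and without crush M1 of 15 weeks 16. With library as a term, in the samples of 1 week alone, 1 member passed. The 6 neutrophil markers summed to 1.38% and 0.473% of UMIs in the PSNL samples and 0.353% and 0.0472% in sham, and 9 members passed without neutrophil-gated cells. Markers of resident macrophages summed to 0.134% and 0.226% in sham and to 0.0319% and 0.0221% in PSNL. Those of Spp1/Arg1 macrophages summed to 0.0208% and 0.0093% in sham and to 0.832% and 1.04% in PSNL. Cells in the gate of these markers numbered 1 of 68 and 0 of 29 gated cells in sham and 69 of 301 and 204 of 543 in PSNL. The part of these differences in the result was not tested.

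**Figure D2:**
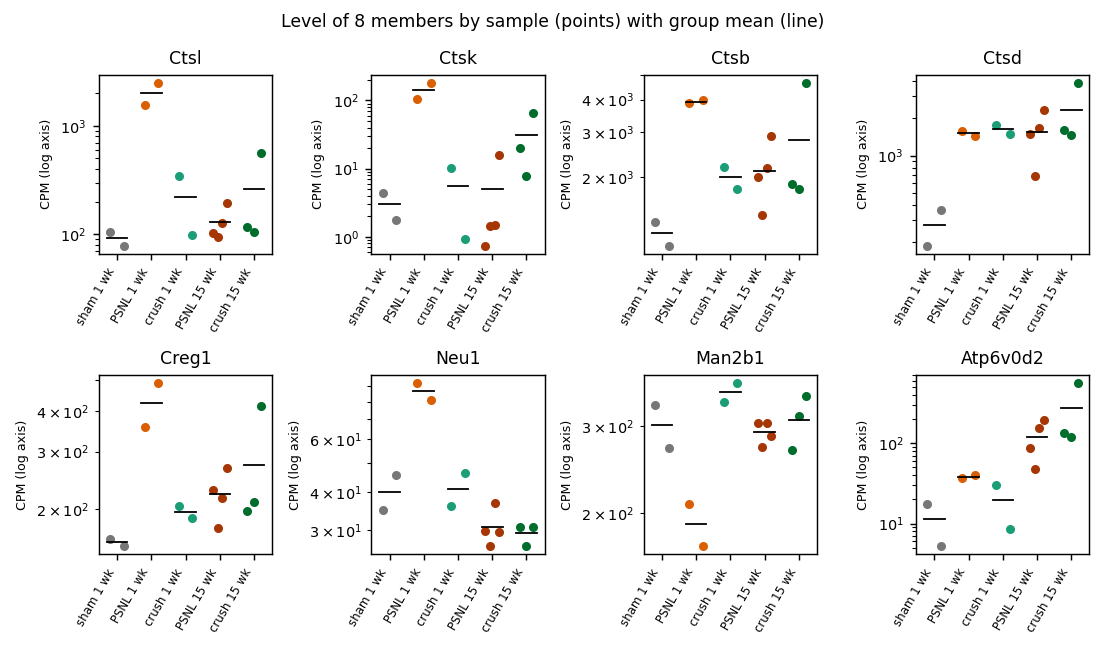
Level in CPM, on log axes, of 8 members in every sample (points) with group means (lines); samples are coloured by injury and time. Ctsl and Ctsk stand highest in the 2 PSNL samples of 1 week, at 1553 and 2494 CPM and at 105 and 182 CPM, while Atp6v0d2 stands highest in crush M1 at 15 weeks, at 563 CPM.

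Crush was compared with the same sham samples, so the values of the 2 comparisons are not independent. In crush 0 of 37 members passed the edgeR test in either direction, beside 0.0697% of all genes higher and 0.0958% lower. An unadjusted edgeR p under 0.05 was found for 7 members, beside 1269 of all 11481 genes. With DESeq2 2 members passed, for which no share over all genes is given here. The median log2 difference was 0.37 over the members and 0.09 over all genes. The largest differences lay in Ctsd, at 1774 and 1486 CPM in crush against 366 and 188 in sham (2.52 ± 0.56, adjusted p = 0.098), in Npc1, at 99.0 and 88.1 against 36.7 and 21.9 CPM (1.56 ± 0.44, adjusted p = 0.19), and in Scarb2, the receptor that carries glucocerebrosidase to the lysosome, at 99.5 and 163 against 42.0 and 56.8 CPM (1.48 ± 0.33, adjusted p = 0.096). Ctss lay at 2026 and 3237 CPM and Tcirg1 at 90.1 and 109 CPM in crush, above both sham samples in each case. Ctsl lay at 345 CPM in the female and 98.1 CPM in the male crush sample, and the latter fell between the sham samples. Without crush M1 of 15 weeks 4 members passed, and without the female crush sample 1.

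PSNL was then compared directly with crush at 1 week. In PSNL 7 of 37 members were higher and 1 was lower, beside 6.7% higher and 5.83% lower over all genes, and the median log2 difference was 0.38 over the members and −0.02 over all genes. The calls fell on 2 cysteine proteases, 2 glycosidases of opposite direction, 1 membrane protein, 2 pump subunits and Creg1. Ctsk lay at 105 and 182 CPM in PSNL against 10.3 and 0.917 CPM in crush, the latter from 3 UMIs (4.88 ± 1.23, adjusted p = 0.023). For Ctsl the values were 1553 and 2494 against 345 and 98.1 CPM (3.20 ± 0.79, adjusted p = 0.021). Both genes differed widely between the 2 crush samples, and neither crush sample reached the lower PSNL sample. That separation adds no support, since the same samples gave the calls.

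Neu1 lay at 92.2 and 81.1 CPM in PSNL against 36.0 and 46.2 CPM in crush (1.07 ± 0.20, adjusted p = 0.0053). Man2b1 went the other way, with 209 and 172 against 336 and 367 CPM, and fell by 0.89 ± 0.17 on the log2 scale (adjusted p = 0.0065). Both enzymes trim sugar chains, from the sialic acid end for Neu1 and from the mannose core for Man2b1. Among the pump subunits, Atp6v0d1, the widely expressed d1 subunit of the membrane part, lay at 137 and 146 against 86.7 and 76.1 CPM (0.80 ± 0.16, adjusted p = 0.0081). Atp6v0c, which forms the proton-carrying ring, was low in both injuries at 24.1 and 23.9 against 6.90 and 7.95 CPM (1.68 ± 0.37, adjusted p = 0.013). The other 5 subunits also lay higher in PSNL, by 0.40 to 1.11 on the log2 scale, and did not pass the test. Lamp2 (0.59 ± 0.16, adjusted p = 0.028) and Creg1 (1.11 ± 0.32, adjusted p = 0.038) completed the list. Genes that had differed from sham in PSNL did not all separate the injuries: Ctsd lay at 1578 and 1451 CPM in PSNL and 1774 and 1486 CPM in crush (−0.11 ± 0.52), and Npc1 at 96.9 and 101 against 99.0 and 88.1 CPM (0.08 ± 0.32).

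Of the 63 other lysosomal genes, 15 were higher and 5 lower in PSNL than in crush. Slc11a1 lay at 225 and 237 CPM in PSNL against 44.8 and 30.6 CPM in crush (2.63 ± 0.31, adjusted p = 0.0005). Sqstm1, the autophagy receptor p62, was higher by 1.29 ± 0.24 (adjusted p = 0.0053), Cstb by 2.33 ± 0.46 (adjusted p = 0.0078) and Mitf by 1.08 ± 0.22 (adjusted p = 0.0098). Arsb fell by 2.03 ± 0.31 (adjusted p = 0.0021).

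The count of 8 calls was 5 without the female crush sample, 2 without the male crush sample, 1 without the male PSNL sample and 13 without crush M1 of 15 weeks. The call of Neu1 held under all 24 alternatives, with log2 differences of 0.90 to 1.27. The count stayed at 8 without neutrophil-gated cells. Markers of Spp1/Arg1 macrophages summed to 0.832% and 1.04% of UMIs in PSNL and 0.127% and 0.0567% in crush, those of microglia-like cells to 0.0250% and 0.0174% in PSNL and 0.0600% and 0.0750% in crush. Their part in the summed difference was not tested, and levels within gated cells are given further on.

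**Figure D3:**
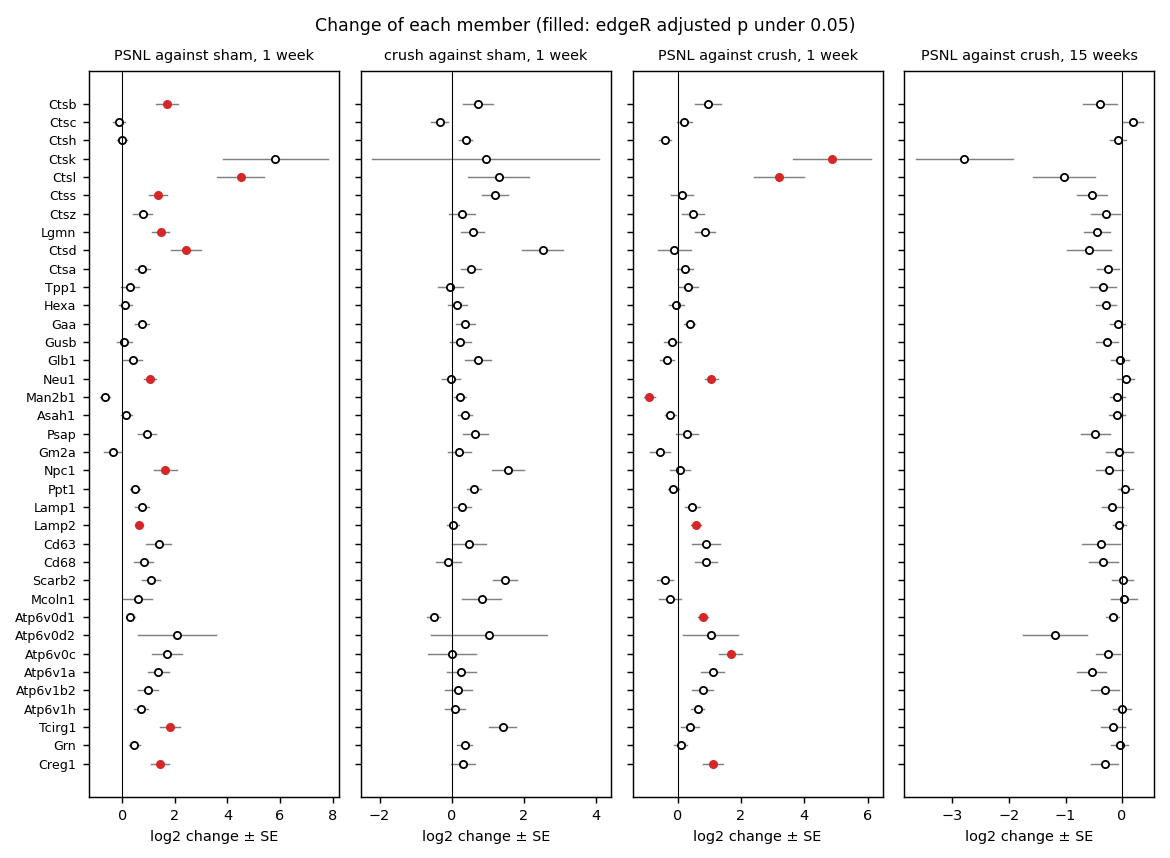
Log2 difference ± SE of each of the 37 members in 4 comparisons, with members at an edgeR adjusted p under 0.05 filled; the horizontal scales differ between panels. Filled points number 10 for PSNL against sham, 0 for crush against sham, 8 for PSNL against crush at 1 week and 0 for PSNL against crush at 15 weeks.

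PSNL and crush were compared again at 15 weeks. Of 37 members 0 passed the edgeR test, beside 0% higher and 0% lower over all genes, and 0 passed with DESeq2. An unadjusted edgeR p under 0.05 was found for 1 member, beside 547 of all 11481 genes. The median log2 difference was −0.25 over the members and −0.01 over all genes. For all 37 members the samples of the 2 groups overlapped. The share of all genes with such overlap was not counted, so the overlap cannot be read as particular to the members. Ctsk was the member with the low unadjusted p, at 20.1, 7.69 and 64.8 CPM in crush and 0.742, 1.43, 1.49 and 16.1 CPM in PSNL (−2.79 ± 0.86, adjusted p = 0.98). Crush M1 held the highest level of Ctsb (4658 CPM), Ctsd (3875 CPM), Ctss (4274 CPM) and Cd63 (1526 CPM) among the 7 samples of 15 weeks, and in the PSNL group M2 held the highest level of each. Crush M1 was also the sample with the highest summed markers of Gpnmb/Fabp5 macrophages at 15 weeks, 0.443% against 0.0737% to 0.276% in the other 6 samples.

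Levels at 15 weeks were set against those at 1 week within each injury, with the limit that time coincided with batch, software version and gene list. In PSNL 5 members were higher at 15 weeks and 15 were lower, beside 29.3% and 27% of all genes. In crush 12 were higher and 2 lower, beside 24.1% and 18.5%. The member medians were −0.20 for PSNL and 0.42 for crush on the log2 scale, those of all genes 0.03 and 0.01. Cell type markers moved with time as well. In PSNL the mean summed share of Spp1/Arg1 markers was 0.935% at 1 week and 0.0188% at 15 weeks, that of neutrophil markers 0.926% and 0.0099%, of resident markers 0.0270% and 0.171% and of microglia-like markers 0.0212% and 0.139%. In crush the means were 0.0919% and 0.0226% for Spp1/Arg1, 0.146% and 0.0176% for neutrophil, 0.0290% and 0.132% for resident and 0.0675% and 0.115% for microglia-like markers. Their part in the differences of the members was not tested.

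Ctsl, Ctsk and Neu1, which were higher in PSNL than in crush at 1 week, were lower in PSNL at 15 weeks. Ctsl went from 1553 and 2494 CPM to 94.2 to 193 CPM and fell by 3.97 ± 0.62 on the log2 scale (adjusted p = 0.00017). Ctsk went from 105 and 182 CPM to 0.742 to 16.1 CPM and fell by 4.92 ± 0.90 (adjusted p = 0.00055). Neu1 went from 92.2 and 81.1 CPM to 26.5 to 36.9 CPM and fell by 1.49 ± 0.16 (adjusted p = 9.9e-06). Smaller decreases that passed were those of Ctsb (0.89), Ctsz (0.84), Lgmn (0.74), Psap (0.95), Lamp2 (0.61), Creg1 (0.93), Grn (0.56), which encodes progranulin, and 4 pump subunits, Atp6v0d1 (0.41), Atp6v1a (0.79), Atp6v1b2 (0.69) and Tcirg1 (0.91). Ctsc (0.86), Man2b1 (0.62) and the acid ceramidase Asah1 (0.60) were higher at 15 weeks in PSNL. Without the female PSNL sample of 1 week 13 members passed in place of 20, and without the male 8.

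In crush 5 of 7 pump subunits were higher at 15 weeks, beside 24.1% of all genes. Atp6v0d2, a d subunit known from osteoclasts and macrophages, went from 30.5 and 8.56 CPM to 133, 120 and 563 CPM (3.89 ± 0.85, adjusted p = 0.0032). Atp6v0d1 (0.56), Atp6v1a (0.86) and Atp6v1h (0.53) were higher by less than 1 on the log2 scale. The tetraspanin Cd63 (1.28) and the macrophage glycoprotein Cd68 (0.99) were higher too, as were Ctsc (0.88), Hexa (0.74), the acid alpha-glucosidase Gaa (0.61), Asah1 (0.46) and Glb1 (1.25). Neu1 fell by 0.49 and Gm2a, the activator that makes the ganglioside GM2 accessible for breakdown, by 1.74. Without crush M1 of 15 weeks the calls of Atp6v1a, Atp6v1h, Cd63, Cd68, Asah1 and Neu1 were lost, and those of the other called members were kept. The calls of Neu1 and Atp6v1a held under 11 and 12 of 24 alternatives. Without the female crush sample of 1 week 7 members passed in place of 14, and without the male 5.

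Of the differences in time that passed in both injuries, those of Glb1, Gm2a and Atp6v0c held under all 24 alternatives, except that of Gm2a in PSNL, which held under 23. Glb1, the beta-galactosidase, went from 18.0 and 18.8 to 44.2 to 67.0 CPM in PSNL and from 23.2 and 23.2 to 45.9 to 60.1 CPM in crush. Gm2a went from 398 and 490 to 142 to 252 CPM in PSNL and from 717 and 598 to 154 to 249 CPM in crush. Atp6v0c stood apart in size: it lay at 4.37 to 24.1 CPM in the 6 samples of 1 week and at 370 to 786 CPM in the 7 samples of 15 weeks, with log2 differences of 4.42 ± 0.32 in PSNL (adjusted p = 4.8e-07) and 6.35 ± 0.37 in crush (adjusted p = 1.9e-07). A similar gap was present within resident-gated cells, where the sham samples held 0 UMIs of Atp6v0c, which allows up to 20.7 CPM in the male and 41.0 CPM in the female sample, and the samples of 15 weeks lay at 363 to 478 CPM. Reads that 2 annotated genes can claim bear on these values. Ctsd has 808 of its exonic bases (34.4%) in common with Gm49369 on the same strand, a gene that the list of 1 week alone holds and that received 0 UMIs there, and Glb1 has 165 bases (5.5%) in common with Tmppe in both lists. For Atp6v0c no overlapping gene was found among genes with a position in GENCODE M21. Of the 650 genes that the list of 1 week alone holds, 45 had no position there and were not searched. Whether counting or biology set the difference of Atp6v0c in time cannot be told apart.

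Of the 63 other lysosomal genes 18 were higher and 26 lower at 15 weeks in PSNL, and 15 higher and 7 lower in crush. Mitf was higher in both, by 2.67 ± 0.20 in PSNL (adjusted p = 7.0e-07) and 3.82 ± 0.23 in crush (adjusted p = 1.9e-07). Among other pump genes 8 of 11 were lower in PSNL, led by Atp6v1e1 (−1.09 ± 0.14) and Atp6v1d (−1.12 ± 0.16), and 1 in crush, Atp6v0a2 (−1.77 ± 0.27). Cstb fell by 2.77 ± 0.36 in PSNL.

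Whether the difference in time itself differed between the injuries was tested as a difference of differences, which does not depend on a shift that both injuries have in common. It passed for 8 members, 1 in the positive and 7 in the negative direction, beside 3.39% and 4.34% of all genes, and its median was −0.64 over the members and 0.02 over all genes. The values were −7.67 ± 1.51 for Ctsk (adjusted p = 0.012), −4.22 ± 0.95 for Ctsl (0.021), −1.0 ± 0.25 for Neu1 (0.029), −0.97 ± 0.20 for Atp6v0d1 (0.014), −1.93 ± 0.43 for Atp6v0c (0.019), −1.65 ± 0.44 for Atp6v1a (0.040) and −1.42 ± 0.39 for Creg1 (0.047). Man2b1 had 0.81 ± 0.21 (0.037). It uses the samples of the preceding comparisons and is not independent of them. The count was 3 without the female crush or the female PSNL sample of 1 week, 0 without either male sample of 1 week, 4 without PSNL F1 or F2 of 15 weeks and 5 without PSNL M1 of 15 weeks. Among the 63 other lysosomal genes 3 passed in the positive and 12 in the negative direction, led by Slc11a1 (−2.80 ± 0.37, adjusted p = 0.0023) and Sqstm1 (−1.72 ± 0.29, adjusted p = 0.0063).

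Which cells held the lysosomal transcripts was examined in cells gated on markers that are not members. Gpnmb, a marker of the Gpnmb/Fabp5 gate, is however on the list of other lysosomal genes. That gate was therefore not chosen independently of lysosomal genes. The part of this overlap in the results for Gpnmb/Fabp5-gated cells was not tested. A cell entered a gate with UMIs of at least 2 of its markers, and more than of any other gate, after thinning to 2000 UMIs, and a sample was used with at least 20 such cells. Gpnmb/Fabp5-gated cells (Gpnmb, Fabp5, Lpl, Itgax, Plin2) gave the highest mean share of UMIs to the members in each of the 4 injured groups. The share was 3.41% and 3.70% in PSNL and 2.75% and 2.82% in crush at 1 week, 2.30% to 3.45% in PSNL and 2.71% to 3.84% in crush at 15 weeks. Spp1/Arg1-gated cells, found in PSNL at 1 week with at most 5 cells in any other sample, gave 2.21% and 2.24%. Microglia-like cells (Cx3cr1, Tmem119, P2ry12, Fcrls, Olfml3) gave 2.75% and 2.58% in crush at 1 week, where the female sample matched its Gpnmb/Fabp5-gated cells, and 1.65% to 2.00% at 15 weeks.

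Other gates held less. Resident-gated cells (Cd163, Lyve1, Cbr2, Folr2, Mrc1, Fcna) gave 1.48% and 1.10% in the sham samples, from 31 and 20 cells, and 1.35% to 1.73% at 15 weeks. The injured samples of 1 week had 2 to 12 resident-gated cells each and were not used. Monocytes (Ly6c2, Plac8, Vcan, Ccr2, Ms4a4c) gave 1.12% and 1.06% in PSNL and 0.915% and 1.24% in crush at 1 week, neutrophils 1.01% and 1.32% in PSNL, from 70 and 47 cells, and dendritic and migratory dendritic cells 0.595% to 0.824%. Across gates the member share spanned a wider range than across the samples as a whole. This follows from a whole sample averaging over its cells and is no separate result. Gpnmb/Fabp5-gated cells numbered 772 of the 1175 cells in any gate in crush M1 at 15 weeks, the sample with the highest summed share. The other 6 samples of that time had 32 to 99 such cells, from 185 to 316 cells in any gate. The sham samples had 9 of 68 and 2 of 29.

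**Figure D4:**
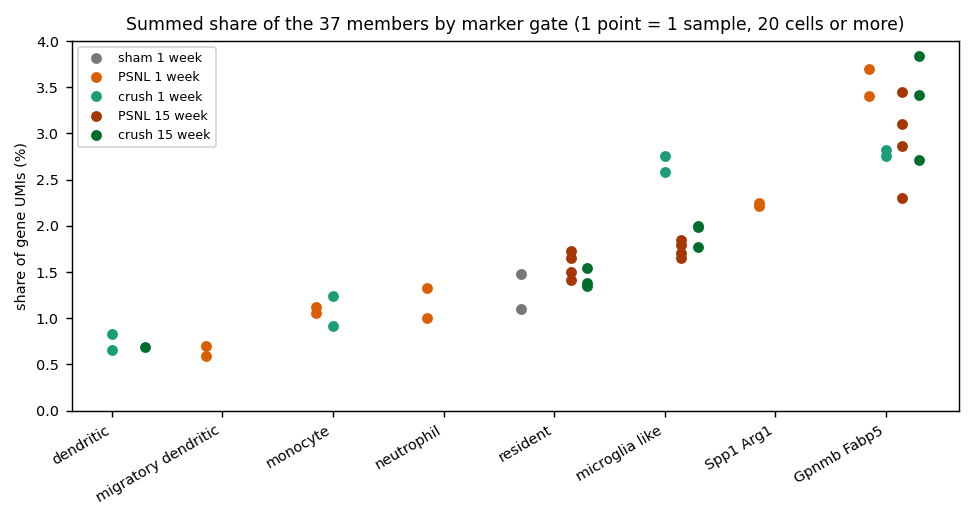
Share of gene UMIs (%) taken by the 37 members in the cells of each marker gate, 1 point for each sample with at least 20 such cells, coloured by injury and time. Gpnmb/Fabp5-gated cells lie at 2.30% to 3.84% and resident-gated cells at 1.10% to 1.73%, without overlap.

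At 15 weeks 7 samples held enough cells to compare gates within the same sample. Gpnmb/Fabp5-gated cells were higher than resident-gated cells in 25 and lower in 2 of 36 members tested, beside 21.9% higher and 23.6% lower over all genes, with a median log2 difference of 0.64 over the members and −0.05 over all genes. Levels within gates are CPM of the UMIs summed over the gated cells. Atp6v0d2 lay at 385 to 823 CPM in Gpnmb/Fabp5-gated and 5.95 to 44.0 CPM in resident-gated cells (4.63 ± 0.29, adjusted p = 1.7e-08). Ctsd lay at 2307 to 5801 against 318 to 794 CPM (3.18 ± 0.21, adjusted p = 3.0e-08). For both genes every Gpnmb/Fabp5-gated sample exceeded every resident-gated one, in the same samples that gave the calls.

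The same direction held for Creg1 (1.80 ± 0.15), Ctss (1.78 ± 0.15), Cd63 (1.70 ± 0.13), Ctsz (1.70 ± 0.14), Psap (1.55 ± 0.12) and Atp6v1a (1.47 ± 0.15). The exceptions were Ctsc, at 397 to 737 against 1186 to 1794 CPM (−1.19 ± 0.12, adjusted p = 1.8e-06), and Grn, at 632 to 848 against 732 to 1272 CPM (−0.38 ± 0.12, adjusted p = 0.022). Ctsk was not tested here, since resident-gated cells held 1 of its UMIs in all 7 samples together. By role, 6 of 7 pump subunits passed in the higher direction, and Atp6v1h did not pass. For the glycosidases Glb1, Man2b1, Neu1 and Gaa the test did not pass either, with log2 differences of −0.22 to 0.31.

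Microglia-like cells were also compared with resident-gated cells of the same samples. They were higher in 15 and lower in 2 of 36 members, beside 10.2% and 9.82% of all genes, with a median of 0.18 over the members and −0.01 over all genes. Ctsd lay at 1034 to 2307 CPM (1.66 ± 0.16, adjusted p = 1.3e-07), Ctss at 2026 to 2563 CPM against 966 to 1309 CPM (1.06 ± 0.08, adjusted p = 1.6e-09), and Atp6v0d2 at 8.77 to 152 CPM (1.87 ± 0.31, adjusted p = 0.00013). Gm2a (−0.57 ± 0.14, adjusted p = 0.0036) and Grn (−0.63 ± 0.09, adjusted p = 1.2e-05) were lower. Grn was thus lower in both gates than in resident-gated cells. The 2 gates were not compared with each other.

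**Figure D5:**
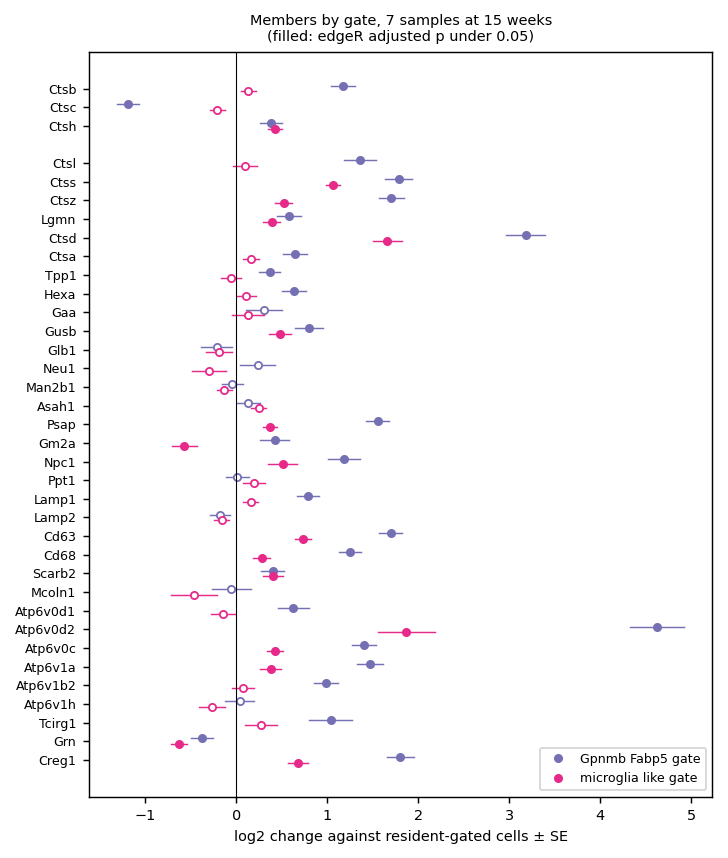
Log2 difference ± SE of the members in Gpnmb/Fabp5-gated and microglia-like cells against resident-gated cells of the same 7 samples at 15 weeks, filled at an edgeR adjusted p under 0.05; Ctsk was not tested and its line is empty. Atp6v0d2 and Ctsd lie farthest to the right for Gpnmb/Fabp5-gated cells, at 4.63 and 3.18, and Ctsc lies farthest to the left, at −1.19.

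Comparing the injuries within 1 gate asked whether the differences seen in summed samples were present in cells with the same markers. Among resident-gated cells at 15 weeks 0 of 36 members passed between PSNL and crush (edgeR, 4 against 3 samples, DESeq2 not run on gates), beside 0% and 0% of all genes. An unadjusted edgeR p under 0.05 was found there for 2 members, beside 190 of all 6566 genes tested. In Gpnmb/Fabp5-gated cells at 15 weeks 0 of 37 passed, beside 0% and 0% of all genes. Again 2 members had an unadjusted edgeR p under 0.05, beside 298 of all 7877 genes tested. At 1 week, in contrast, 2 of 37 members were higher in Gpnmb/Fabp5-gated cells of PSNL than of crush and 0 were lower, beside 0.508% and 0.355% of all genes. This gate, and that of monocytes, were chosen after the cell numbers per gate were seen.

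The members that passed were Ctsk, at 219 and 524 CPM in PSNL against 35.3 and 6.84 CPM in crush (4.13 ± 0.84, adjusted p = 0.037), and Creg1, at 626 and 853 against 312 and 315 CPM (1.30 ± 0.27, adjusted p = 0.040). Ctsl lay at 2460 and 4858 against 1009 and 331 CPM and did not pass (2.50 ± 0.67, adjusted p = 0.11), and Man2b1 lay at 182 and 153 against 260 and 363 CPM (−0.84 ± 0.27, adjusted p = 0.20). No member passed when any of the 4 samples of 1 week was left out, 1 passed without crush F2, PSNL M1 or PSNL M2 of 15 weeks in turn, and none passed when the gate required 3 markers. Spp1/Arg1-gated cells of PSNL held Ctsl at 2081 and 2457 CPM and Ctsk at 67.8 and 87.2 CPM.

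Among monocytes at 1 week 1 of 32 members was higher in PSNL and 0 lower, beside 2.47% and 0.701% of all genes. That member was Ctsl, at 203 and 233 CPM in PSNL against 10.5 and 30.8 CPM in crush (3.13 ± 0.35, adjusted p = 0.0049), the crush values resting on 2 and 28 UMIs. Without the female crush sample 5 members passed and without the male 5. Neutrophils of PSNL held Ctsl at 419 and 351 CPM and migratory dendritic cells at 0 (which allows up to 31.4 CPM) and 106 CPM, so that in PSNL at 1 week Ctsl was also found outside the macrophage gates. RNA released by broken cells and taken up in other droplets was not measured, and its part in these low levels was not tested.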

How the data were processed

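The authors deposited UMI counts per gene, hashtag and cell barcode for 4 libraries, written by Cell Ranger 6.0.0 (1 week) and 7.0.0 (15 weeks) per the file headers. The submitters' processing notes name Seurat 5.1.0 and GRCm38, and intron counting is not given in the sources used here. The 1 hashtag without a label was not used.

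Barcodes were assigned where exactly 1 hashtag exceeded the valley of its counts (bandwidth 0.2). Those with several hashtags (48 to 713 a library) or none (19 to 22) were left out as doublets or unlabelled cells, and no doublet caller was run. Libraries held 1920 to 2675 barcodes with medians of 3807 to 7704 UMIs. Cells needed at least 500 genes and under 10% mitochondrial counts.

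Counts were summed per sample over the 30406 genes that all matrices hold and tested with edgeR 4.0.16 (R 4.3.3, filterByExpr, TMM, quasi-likelihood test), in 1 fit over 13 samples with 8 residual degrees of freedom. Genes were called at a Benjamini-Hochberg adjusted p under 0.05 over all 11481 genes. The SE is the log2 difference divided by the root of F. Gated cells were summed per sample, with the sample as a block between gates. The procedure was also run on simulated counts with changes set in PSNL at 1 week alone, and the outcome is not reported here. Samples of the same group were not duplicates, since their counts differed beyond sampling noise (chi-squared of 4.40 to 47.8 for each degree of freedom).

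Alternatives were HTODemux (Seurat 5.3.0, quantile 0.99), DESeq2 1.42.0, its size factors in edgeR, no filter on low counts, looser cells (200 genes, 20% mitochondrial counts), no barcodes in the top 6% of UMIs, no Gm42418, AY036118 and mitochondrial genes, no neutrophil-gated cells, replicate block, sex or library as a term, samples of the compared times alone, gates of 3 markers or 10 cells, and each sample left out. The tests within Gpnmb/Fabp5-gated cells and monocytes, and the summed share without Ctsd and Atp6v0c, were added after seeing the data.

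All members could be named, with full values for those called. Of 63 other lysosomal genes, up to 3 a list and comparison were named by smallest adjusted p among those called, and 1 of these is not reported here. The members and lists were chosen with earlier results of these data known. Gene positions came from GENCODE M21 and promoters from RefSeq, both GRCm38.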

Additional observations from a re-analysis of the deposited data

Results flagged for a closer look

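A single sample, M2, stood apart within PSNL at 15 weeks in some of the values examined. Sample M2 lay above the other 3 by most of the group's range for Ctsk (16.1 CPM against 0.742 to 1.49), Ctss (2385 CPM against 1679 to 1764), Psap (2458 CPM against 1640 to 1676) and the summed share of the lipid-handling genes (0.338% against 0.255% to 0.266%). The gap to the nearest sample took 0.951, 0.88, 0.956 and 0.87 of the range, above Dixon's 95% critical value for 4 samples. This was found in 4 of 45 groups of values examined, and chance gives about 1 in 20. The 4 are not separate, since all concern M2 and Psap is part of the lipid-handling share. The count therefore cannot be set against that rate as if the values were independent. The summed markers of Gpnmb/Fabp5 macrophages were 0.276% in M2 and 0.0737% to 0.168% in F1, F2 and M1, and their part in these values was not tested.

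For 8 members the difference between 15 weeks and 1 week was not the same in PSNL and crush, by edgeR's test of that difference. Of these, 1 was positive and 7 were negative, beside 3.39% and 4.34% of all genes, and the calls depended on single samples of 1 week. In crush at 1 week Ctsk rested on 21 and 3 UMIs and Atp6v0c on 14 and 26. On the log2 scale these differences were −7.67 for Ctsk, −4.22 for Ctsl, −1.0 for Neu1, 0.81 for Man2b1, −0.97 for Atp6v0d1, −1.93 for Atp6v0c, −1.65 for Atp6v1a and −1.42 for Creg1.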

How the results depend on the processing

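Alternatives were run for the member values called in the whole-sample comparisons, and none of these changed direction. Over all pairs of a called value and an alternative, the call was kept in 607 and lost in 63 under other settings, and kept in 576 and lost in 204 with 1 sample left out. Calls in PSNL against sham numbered 5 with HTODemux (4 of them among the 10) and 1 with library as a term. In crush against sham 2 passed with DESeq2, 4 without the filter on low counts, and 1 each with the replicate block, with sex as a term and with samples of 1 week alone. Shares over all genes under these alternatives are not given here. With 3 markers a gate, 0 members passed in Gpnmb/Fabp5-gated cells and 8 in monocytes at 1 week. Without Gm42418, AY036118 and mitochondrial genes the summed share was 1.27% in sham, 2.32% in PSNL and 1.84% in crush at 1 week. Without Ctsd and Atp6v0c it was 1.88% in PSNL and 1.44% in crush. In sham it was 1.15% with HTODemux, and in crush 1.58% with HTODemux, 1.59% with looser cells and 1.60% without neutrophil-gated cells. The cause was not tested.

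With each sample left out in turn, calls numbered 0 to 16 in PSNL against sham, 0 to 4 in crush against sham, 1 to 13 and 0 to 0 in PSNL against crush at 1 and 15 weeks, 8 to 23 and 5 to 13 in PSNL and crush over time, 0 to 10 for their difference, 25 to 27 and 14 to 18 for Gpnmb/Fabp5-gated and microglia-like against resident-gated cells, 0 to 0 in resident-gated cells, 0 to 3 and 0 to 0 in Gpnmb/Fabp5-gated cells at 1 and 15 weeks and 1 to 5 in monocytes. Such fits assume that a lone sample varies like the others.

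Samples with the same number at 15 weeks did not deviate together throughout (r = 0.0817, 0.163 and 0.112), and 0 of 3 crush samples correlated best with its own number, so the numbers were not taken as pairs. With the replicate block 5 members passed in crush over time in place of 14, 12 in PSNL against sham, 10 and 0 in PSNL against crush at 1 and 15 weeks, 15 in PSNL over time and 11 for the difference of differences.

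Depth limited sham most, with 64 and 106 cells.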
